A study of Solanum tuberosum with 5 samples.

Results

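Among the transcript tags of potato plantlets, 186 stood higher than at the start after both 2 and 5 days in long days (LD) and stood lower in plantlets moved to short days (SD) than in LD plantlets of the same day. A tag was taken when it was listed in all 5 libraries and reached 10 tags per 1000000 tags of the library (TPM) in at least 1 of them, which 6208 of 27553 distinct tags did. With 1 TPM added to each value, both later LD libraries then had to be at least 1.5 times the day 0 library, and each SD library had to be at least 1.5 times lower than the LD library of its day. The members were thus chosen by the TPM values of all 5 libraries. The LD rise and the gap between SD and LD are therefore given as descriptions without a test. The members are numbered R1 to R186 by the mean log2 size of their LD rise, largest first.

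Plantlets of Solanum tuberosum, genotype E26, had all spent 3 weeks in LD before the first sample was taken. The groups were plantlets at the time of transfer (d0), plantlets kept in LD for a further 2 days (L2) or 5 days (L5), and plantlets kept in SD for 2 days (S2) or 5 days (S5). Each group had 1 library of polyadenylated RNA, and the labels do not say how many plantlets it held or from which part they came. Every group shared the genotype and the LD start, and the SD plantlets differed in the photoperiod of the last 2 or 5 days. Library totals recovered from the values lay between 3492458 and 3688117 tags. With 1 library per group no difference has a replicate check, and the intervals below are exact 95% Clopper-Pearson intervals of a ratio of tag counts, which cover counting error only. In RNA from plantlets, fewer cells of a type and less RNA per cell cannot be told apart.

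Potato forms tubers on underground stems, and in photoperiod-sensitive types short days promote this while long days delay it. Leaves perceive day length through phytochrome and the circadian clock, and a mobile protein of the FLOWERING LOCUS T family carries the inductive signal to the stolon. Photoperiod also changes how leaves partition sugars and starch over the day. A tag library reads a short sequence beside a restriction site as a stand-in for the whole transcript. The files give no gene for any tag, so no function is assigned to a member here.

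The members were mostly of low to moderate abundance at the start and gained in LD. Their median was 7.89 TPM in d0, 22 in L2 and 25.4 in L5, against 8.98 in S2 and 12.7 in S5. The highest library of a member was L2 for 91 tags and L5 for 95, and the choice of tags allowed no other library to be highest. The lowest was d0 for 72 tags, S2 for 64 and S5 for 50, and the choice of tags kept L2 and L5 from being lowest. The counting interval of the SD to day 0 ratio lay below 1 in 19 members on day 2 and in 19 on day 5. The values of all members summed to 6081 TPM in d0, 20118 in L2 and 19708 in L5. The sums were 10061 TPM in S2 and 8411 in S5. A single abundant tag, R116, carried much of these sums. Without it they were 3192 TPM in d0, 11354 in L2 and 15261 in L5, and 4355 TPM in S2 and 5468 in S5.

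**Figure D1:**
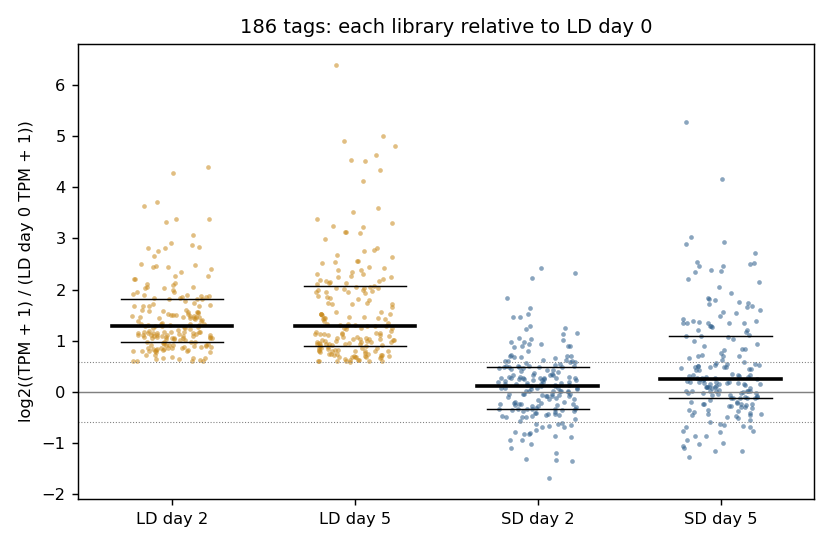
Level of each of the 186 tags in the LD and SD libraries of days 2 and 5 relative to day 0 (an LD library), as log2 of the TPM ratio with 1 TPM added. Each point is 1 tag in 1 library, the thick line is the median, thin lines are the quartiles and dotted lines mark 1.5-fold. The LD points start at 1.5-fold by the choice of tags, while the SD medians stand at 0.12 on day 2 and 0.25 on day 5.

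The members were 11.4% of the 1632 eligible tags that were higher in LD on both days, and 3% of all eligible tags. Of all eligible tags, 32.2% met the LD condition of day 2, 35.8% that of day 5, 29.9% the SD condition of day 2 and 20.6% that of day 5. Among the 1632 tags higher in LD, 1084 met the SD condition on day 2 (66.4%) and 292 on day 5 (17.9%). The tags that met both made up 17.2% of the day 2 list and 63.7% of the day 5 list. Of the 548 tags higher in LD that did not meet the day 2 condition, 19.3% met that of day 5. Meeting the SD condition on day 2 was thus not accompanied by a larger share meeting it on day 5. The counts depended on the scaling: with median-of-ratios factors 157 tags met the day 5 condition and 100 were members, all of them among the 186.

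On day 2 the SD level of most members lay close to the day 0 level, as did that of most eligible tags. S2 was within 1.5-fold of d0 in 126 of 186 members (67.7%), at least 1.5 times higher in 37 (19.9%) and at least 1.5 times lower in 23 (12.4%). Over all eligible tags the same shares were 56.9%, 17.6% and 25.5%. The median ratio of S2 to day 0, with 1 TPM added, was 1.08 over the members, with quartiles of 0.797 and 1.40, and 0.949 over all eligible tags. The counting interval of this ratio included 1 in 132 members, lay above 1 in 35 and below 1 in 19. Expressed as a share of the LD rise of that day, S2 had reached a median of 6.38%, with quartiles of -12.6% and 22.1%, where a negative share means a level below day 0. The share was negative in 78 members and under 50% in all 186. The choice of members limits this share, since SD had to stay at least 1.5 times below LD. For a tag with a small LD rise the highest share allowed is well under 50%.

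On day 5 fewer members lay close to day 0 and more lay above it than on day 2, as was also the case over all eligible tags. S5 was within 1.5-fold of d0 in 103 members (55.4%), at least 1.5 times higher in 64 (34.4%) and at least 1.5 times lower in 19 (10.2%). Over all eligible tags the shares were 33.1%, 33.5% and 33.4%, so the members' share above day 0 lay near that background, as on day 2. The median ratio to day 0 was 1.19 over the members, with quartiles of 0.915 and 2.15, and 0.993 over all eligible tags. The counting interval included 1 in 108 members, lay above 1 in 59 and below 1 in 19. The median share of the LD rise reached was 13.5%, with quartiles of -7.84% and 35.2%. It was negative in 62 members and at least 50% in 17. The order of the days in these medians turned when values were rescaled to the listed tags, to a share of 9.42% on day 2 and 6.01% on day 5 and a ratio to day 0 of 1.13 and 1.06. Under that scaling 44 members still stood above day 0 on day 2 and 59 on day 5, with 119 and 99 near it. Both days are set against the same d0 library, and the choice of members caps the SD level at the LD level divided by 1.5. The share of the LD rise reached is thereby capped on both days.

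For tags with a small LD rise the cap itself keeps SD from standing above day 0. A tag with an LD ratio under 2.25 cannot stand 1.5 times above day 0 in SD, and this held for 79 members on day 2 and 86 on day 5. Among the 107 members with an LD ratio of 2.25 or more on day 2, S2 was within 1.5-fold of day 0 in 59, above it in 37 and below it in 11. Among the 100 such members on day 5, S5 was within 1.5-fold of day 0 in 30, above it in 64 and below it in 6. Where L5 was 4 or more times day 0, 47 of 54 members stood above day 0 in S5 as well, with a median ratio of 3.00 in SD beside 5.77 in LD. On day 2 the corresponding group held 34 members, of which 19 stood above day 0 and 11 near it, with a median of 1.90 in SD beside 5.54 in LD. On day 2 most members that could have stood above day 0 were thus near or below it. On day 5 most stood above it, at a smaller multiple than in LD, as the choice required. Their share near day 0 was 55.1% on day 2 and 30% on day 5, close to the 56.9% and 33.1% of all eligible tags. A further 25.5% of all eligible tags lay below day 0 in S2. Members with an LD ratio under 2.25 were near day 0 in 84.8% on day 2 and 84.9% on day 5. Over all 1632 tags higher in LD, of any LD ratio, 35.3% stood at least 1.5 times above day 0 in S2 and 84.2% in S5. The shift between the days was therefore not particular to the members.

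**Figure D2:**
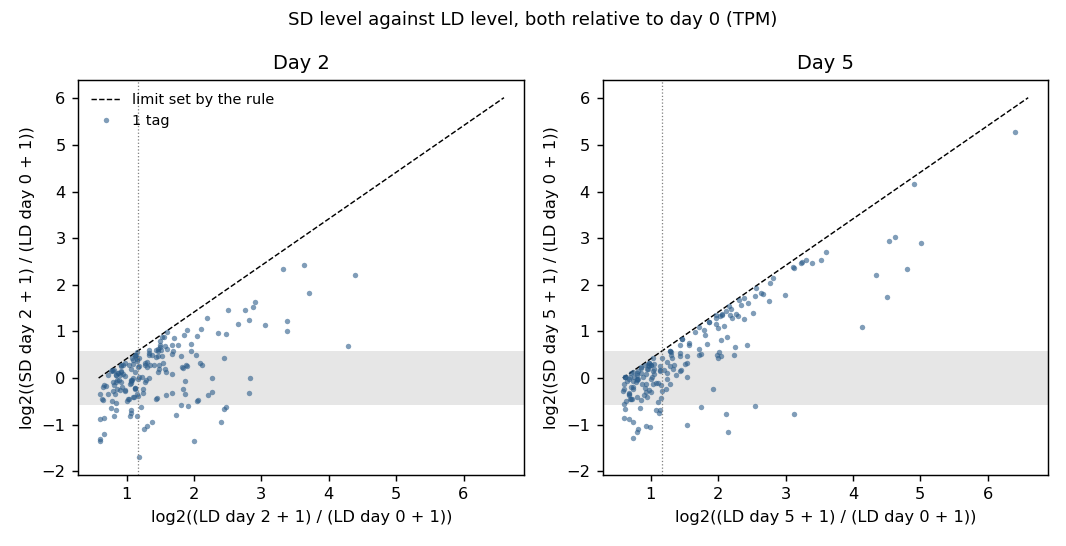
SD level against LD level on day 2 (left) and day 5 (right), both as log2 ratios to d0 with 1 TPM added, for the 186 tags. The dashed line is the highest SD level that the choice of tags allows, the grey band is within 1.5-fold of day 0, and the dotted line marks an LD ratio of 2.25. On day 5, 64 tags stand above the band, against 37 on day 2. Some of the tags with large LD ratios lie close to the dashed line on day 5, and others, such as R1 and R4, lie well below it.

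The size of the gap between SD and LD was part of the choice and is described without a test. SD stood at 0.445 of LD on day 2 and 0.514 on day 5 in the median member, with 1 TPM added, beside 0.973 and 0.936 over all eligible tags. Rescaled to the listed tags, the members' medians were closer, at 0.466 and 0.501. They were farther apart with TMM factors, at 0.454 and 0.557, and with median-of-ratios factors, at 0.475 and 0.586. The ratio was 0.5 or more in 70 members on day 2 and in 100 on day 5. It was 0.25 or less in 26 members on day 2 and in 14 on day 5. The level at the start is given as a description only, since day 0 is the base of both ratios and tags low at day 0 reached 10 TPM only through another library. Of the 50 members under 5 TPM in d0, 32 stood above day 0 in S5 and 14 near it, and their median L5 ratio was 4.06. Of the 34 members at 20 TPM or more, 6 stood above day 0, 22 near it and 6 below, and their median L5 ratio was 2.09. On day 2 the groups were more alike, with 33 of the 50 and 23 of the 34 near day 0.

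Tags that were lower in SD on 1 day only were set beside the members. The 898 tags lower in SD on day 2 but not on day 5 had a similar LD rise on day 2, with a median ratio of 2.51 beside 2.43 in the members. In S2, 41.1% of these tags stood at least 1.5 times below day 0, 50.6% near it and 8.35% above it, against 12.4%, 67.7% and 19.9% of the members. Their median S2 level was 0.7495 of day 0. Their S5 level could not lie below day 0 by the way these tags were chosen. The 106 tags lower in SD on day 5 only had a median L5 ratio of 2.77, beside 2.44 in the members. In S5, 50% of them stood near day 0, 47.2% above it and 2.83% below it. Restricted to an LD ratio of 2.25 or more, 260 of 560 tags of the first group lay near day 0 and 225 below it on day 2, against 59 and 11 of 107 members. In the second group, 17 of 69 lay near day 0 on day 5, against 30 of 100 members. No test was made of these differences, since each level is 1 library and day 0 is shared.

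**Figure D3:**
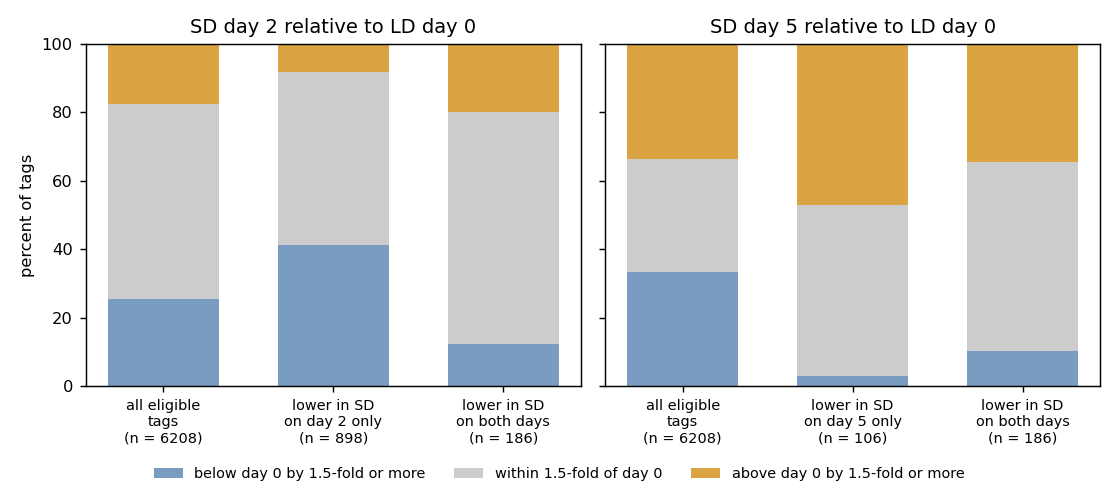
Percent of tags whose SD level lay at least 1.5-fold below, within 1.5-fold of, or at least 1.5-fold above d0, with 1 TPM added, on day 2 (left) and day 5 (right). Bars are all eligible tags, LD-rising tags lower in SD on the named day only, and the 186 tags lower on both days. On day 2, 12.4% of the 186 tags lay below day 0, against 41.1% of the tags lower on day 2 only.

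The members with the largest LD rise, R1 to R6, did not behave alike in SD. R1 had 4.79 TPM in d0, 111.1 in L2, 160.8 in L5, 8.27 in S2 and 28.4 in S5. S2 was 1.73 times day 0, with an interval of 0.917 to 3.35 that includes 1, and S5 was 5.92 times day 0 (interval 3.51 to 10.6). R1 had thus reached 3.27% of its LD rise on day 2 and 15.1% on day 5.

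R4 had 20.01 TPM in d0, 439.1 in L2, 366.9 in L5, 96.9 in S2 and 44.1 in S5. It lay above day 0 in both SD libraries, but nearer to it on day 5, at 4.84 times (interval 3.74 to 6.35) and then 2.20 times (interval 1.65 to 2.96). R6 followed the same order, with 39.5 TPM in d0, 402.2 in L2, 923.5 in L5, 201.9 in S2 and 133.4 in S5. Its share of the LD rise went from 44.8% on day 2 to 10.6% on day 5. R5 kept a steadier share, 21.2% and then 18.8%, with 18.0 TPM in d0, 247.9 and 385.3 in LD, and 66.7 and 87.0 in SD.

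R2 and R7 were the members farthest above day 0 in S5. R2 had 0.56 TPM in d0, from 2 tags, 6.49 in L2, 131.0 in L5, 0.57 in S2, also from 2 tags, and 59.3 in S5. Its S5 ratio to day 0 was 106, with an interval of 28.7 to 874. R7 had 0.85 TPM in d0 and 0.86 in S2, from 3 tags each, 12.1 and 54.8 in LD days 2 and 5, and 32.4 in S5. In both tags S2 was at the day 0 level within wide counting intervals, 0.0733 to 14.0 for R2 and 0.135 to 7.55 for R7. By day 5, R2 had reached 45.02% and R7 58.4% of the LD rise.

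The most abundant members differed in where their SD levels stood relative to day 0 and to LD. R116 had 2889 TPM in d0, 8764 in L2, 4448 in L5, 5707 in S2 and 2943 in S5. Its S5 level was 1.02 times day 0 (interval 0.991 to 1.05), while S2 was 1.98 times day 0 (interval 1.93 to 2.02). R116 lay just inside the limits, with SD at 0.651 of LD on day 2 and 0.662 on day 5, and it was not a member under any of the 3 other scalings tried.

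R3 had 120.9 TPM in d0, 1521 in L2, 3937 in L5, 651.2 in S2 and 909.7 in S5. It stood well above day 0 in SD on both days, 5.39 times (interval 4.86 to 5.98) and 7.52 times (interval 6.80 to 8.34), and was also the member farthest above day 0 in S2. R8 had 48.2 TPM in d0, 344.9 and 1220 in LD, and 114.9 and 401.4 in SD. SD stood at 0.333 of LD on day 2 and 0.329 on day 5 for this tag, and the counting intervals of 0.297 to 0.373 and 0.310 to 0.349 overlapped. R33 had 207.4 TPM in d0, 753.6 and 1132 in LD, 163.4 in S2 and 630.5 in S5. It moved from 0.788 of day 0 on day 2 (interval 0.705 to 0.880) to 3.04 times day 0 on day 5 (interval 2.79 to 3.31).

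**Figure D4:**
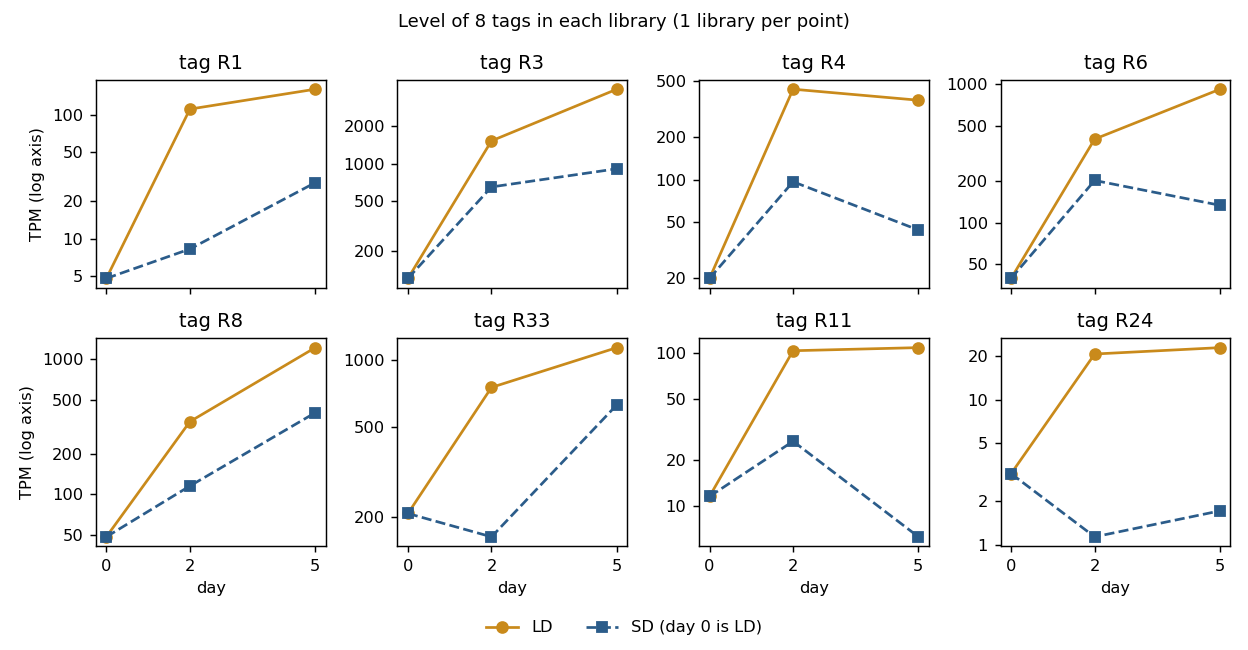
TPM of 8 tags, on a log axis, against the day of sampling in LD (circles) and SD (squares), with d0 as the start of both lines and 1 library per point. The tags R1, R3, R4 and R6 are among those of largest LD rise, R8 and R33 are among the most abundant, and R11 and R24 are among those with the lowest SD to LD ratio. R24 falls below its day 0 level of 3.10 TPM in both SD libraries, and R11 in S5.

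With 1 TPM added, the lowest SD to LD ratios over both days were those of R24, R1, R11, R4 and R45. R24 had 3.10 TPM in d0, 20.6 in L2, 22.8 in L5, 1.14 in S2 and 1.72 in S5. Both SD values lay below day 0, at 0.368 (interval 0.0854 to 1.24) and 0.555 (interval 0.168 to 1.63), with intervals that include 1. R11 had 11.6 TPM in d0, 103.5 and 108.5 in LD, 26.5 in S2 and 6.30 in S5. R11 was above day 0 on day 2, at 2.29 times (interval 1.57 to 3.40), and below it on day 5, at 0.545 (interval 0.309 to 0.937). R45 had 5.07 TPM in d0, 18.3 and 26.03 in LD, 5.42 in S2 and 1.72 in S5. It was level with day 0 on day 2 and at 0.339 of it on day 5 (interval 0.110 to 0.891).

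With 1 TPM added, the members farthest below the starting level were R63 and R86 in S2, and R180 and R45 in S5. Without it, R46 came before R86 in S2, at 0.311 of day 0, and R45 and R99 were lowest in S5, at 0.339 and 0.362. R63 had 5.92 TPM in d0, 14.7 and 28.2 in LD, 1.14 in S2 and 14.0 in S5, so that S2 was 0.193 of day 0 (interval 0.0481 to 0.571). R86 had 8.17 TPM in d0, 13.0 and 39.0 in LD, 2.57 in S2 and 16.0 in S5. Both tags were lowest in S2 and stood above day 0 in S5, R63 at 2.37 times (interval 1.40 to 4.16) and R86 at 1.96 times (interval 1.23 to 3.19). R180 had 74.4 TPM in d0, 124.4 and 125.0 in LD, 78.1 in S2 and 30.1 in S5. It was level with day 0 on day 2, at 1.05 times (interval 0.883 to 1.248), and at 0.404 of it on day 5 (interval 0.319 to 0.508).

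The choice of members did not set day 5 against day 2 within a photoperiod directly. In SD, 59 members were at least 1.5 times higher on day 5 than on day 2 (31.7%) and 37 at least 1.5 times lower (19.9%), against 29.4% and 30.8% of all eligible tags. Rescaled to the listed tags, the members split into 52 higher and 52 lower. In LD, 40 members were higher (21.5%) and 16 lower (8.6%), against 17.4% and 19.2% of all eligible tags. Among all 1632 tags higher in LD, 61% were higher in SD on day 5 than on day 2, with a median ratio of 2.06, beside 1.09 in the members. Tags higher on day 5 in both photoperiods numbered 33, which is 82.5% of the LD list and 55.9% of the SD list, beside 82.9% and 26.2% for all tags higher in LD. Tags lower in both numbered 14, or 87.5% of the LD list and 37.8% of the SD list, beside 36.6% and 22.03% for all tags higher in LD. Over all eligible tags, those higher in both made up 55.9% of the LD list and 33.1% of the SD list. Those lower in both made up 76.2% and 47.5%. No LD and SD value is shared between these ratios, but the cap on SD levels ties the days of both photoperiods together.

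**Figure D5:**
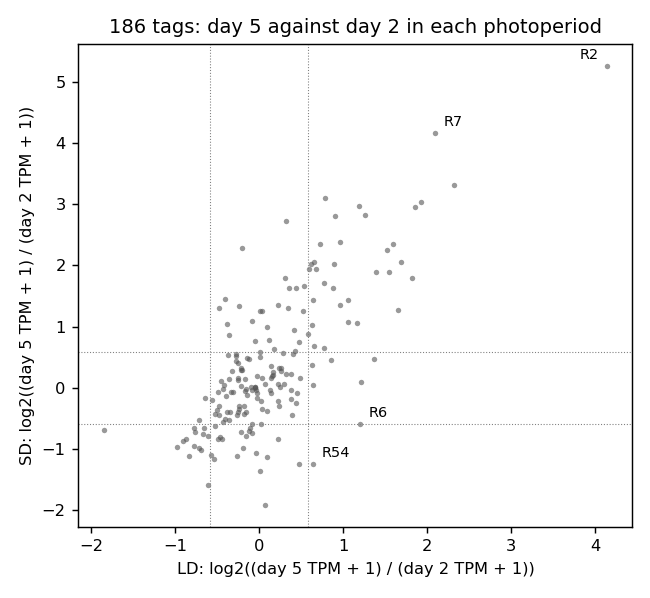
Day 5 against day 2 in SD (vertical axis) and LD (horizontal axis), as log2 TPM ratios with 1 TPM added, for the 186 tags. Each point is 1 tag, and dotted lines mark 1.5-fold. Of the 40 tags to the right of the dotted line for LD, 33 also lie above that for SD, and R6 and R54 lie at the lower right.

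The members nearest to the limits differed little from the tags just outside. The nearest inside were R161, R125 and R182. R161 had 12.4 TPM in d0, 20.3 and 26.3 in LD, and 4.85 and 17.2 in SD. R125 had 3.38 TPM in d0, 11.6 and 5.69 in LD, and 7.13 and 3.44 in SD. R182 had 24.8 TPM in d0, 45.4 and 38.0 in LD, and 15.1 and 20.3 in SD. Of the eligible tags just outside, the nearest had 2.25 TPM in d0, 7.33 and 10.3 in LD, and 4.56 and 4.58 in SD. The next had 4.79 TPM in d0, 8.18 and 11.9 in LD, and 5.13 and 5.15 in SD, and the last had 10.4, 16.1 and 19.8 TPM in LD, and 7.98 and 10.6 in SD. The counting intervals of all 4 ratios behind the choice excluded 1 in 163 of the 186 members. Since the choice required each of these ratios to be at least 1.5-fold, this count is a description and no support for the membership. Of the 19 members named by rule, 12 stayed members under all 3 other scalings, and R7, R86, R116, R125, R161, R180 and R182 did not.

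Features of the tags that were not used to choose them are given as a description without a test. The 17 bases after the restriction site held a mean of 33.2% G and C in the members (standard deviation 10.1). The mean was 34.1% in all tags higher in LD (standard deviation 11.4) and 36.8% in all eligible tags (standard deviation 11.8). The median was 35.3% in all 3 sets. Compared base by base at the same positions, no pair of members was within 2 mismatches of each other. Shifted copies and tags from the same transcript were not looked for. All files list their shared tags in the same order, and 5 equal stretches of that order held 38, 41, 39, 37 and 31 members. In 11 places 2 members were direct neighbours among the eligible tags, and no reference count was made for this.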

How the data were processed

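One tag library per group was analysed, prepared from polyadenylated RNA with an Illumina Gene Expression kit, per the labels' protocols. The deposited values are named TPM in the file headers and are reads per 1000000 tags of the library (RPM), not divided by transcript length. This unit was read from the values: at least 99.98% are whole multiples of 1 step within 0.006 TPM, and the lowest is 2 steps. The step gave tag counts and library totals, and 10 TPM rests on 34.9 to 36.9 tags. No aligner, reference, build or tag filter is named (not given in the sources used here). Tags unlisted in a library were left out, not set to 0. No test was run. Counting intervals came from scipy 1.17.1. Limits, counts and medians used 1 TPM added, while ratios quoted with an interval are of the deposited values. The procedure was tested on simulated data. Named tags are the 6 with the largest LD rise, the 5 with the highest mean LD value, the 5 with the lowest mean SD to LD ratio, the 2 farthest above and below day 0 in each SD library, and those nearest to the limits. Members and lists were chosen with earlier results of these data known. R46, R54 and R99 were named after their values were seen. The values were also scaled by TMM or median-of-ratios factors. Other alternatives were rescaling to the listed tags, other pseudocounts, floors and folds, and unlisted tags set to 0. Gene lists were not analysed here, as tags carry no gene names.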

Additional observations from a re-analysis of the deposited data

Results flagged for a closer look

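R6 and R54 were at least 1.5 times lower on day 5 than on day 2 in SD and at least 1.5 times higher in LD, the only 2 members that moved in opposite ways by that much, and 0 moved the other way round. These are 1.08% and 0% of the members, beside 0.49% and 1.1% of all tags higher in LD, which is 8 and 18 of 1632. Over all eligible tags the shares were 1.24% and 0.87%, so the 1.08% of the members lay near that background. R54 had 12.4 TPM in d0, 36.1 in L2, 56.7 in L5, 17.7 in S2 and 6.87 in S5. The difference between photoperiods was not tested, with 1 library behind each value.

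Tags that a single SD library did not list were left out above. Of 92 tags higher in LD and listed everywhere but in S5, 58 met the SD condition of day 2 (63%), beside 66.4% of the tags higher in LD that all libraries listed. Of 169 listed everywhere but in S2, 19 met the SD condition of day 5 (11.2%), beside 17.9%.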

How the results depend on the processing

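No paired analysis was possible because each group holds 1 library. The 186 members became 140 with TMM, 100 with median-of-ratios factors and 182 after rescaling to the listed tags, and 99 were members under all of these scalings. Of those 99, 66.7% were within 1.5-fold of day 0 in S2 and 51.5% in S5. The scalings moved the median log2 ratio of S5 to L5 over all eligible tags from -0.1 to between -0.12 and 0.09, and that of S5 to day 0 from -0.01 to between -0.18 and 0.05. Members numbered 111 with a pseudocount of 5, 53 with a floor of 50 TPM, 39 with a fold of 2 and 592 with unlisted tags set to 0, which adds tags by construction. In the same order of floor, fold and unlisted tags, tags higher in LD were 576, 972 and 2948, those lower in SD on day 2 were 397, 617 and 2024, and those lower on day 5 were 80, 66 and 872. The last were 157 with median-of-ratios factors and 178 with a pseudocount of 5. A pseudocount of 5 left 8 members below day 0 in S2, 10 in S5 and 22 lower in S5 than S2. With a narrower band around day 0, 78 members lay within it on day 2. Near day 0 were 60.4% on day 2 and 39.6% on day 5 with a floor of 50 TPM, and 53.8% on day 2 with a fold of 2. The median ratio to day 0 was 1.29 on day 2 with that floor, and on day 5 it was 1.34 with that fold and 1.06 after rescaling to the listed tags. The median share of the LD rise on day 5 was 19.5% with median-of-ratios factors, 6.01% after rescaling and 20.9% on the log2 scale. The causes were not tested. Alternatives for LD-rising tags, for day 5 against day 2 and for the median SD to LD ratio were added after seeing the data. The other 92 of 121 values stayed within 1.5 times, for counts, or within their interval, for shares and medians. So did 188 of 200 values of single tags and of the median SD to LD ratio, by their interval. After rescaling to the listed tags the log2 ratio of S5 to day 0 changed sign in 2 tags near the day 0 level. It went from 0.03 to -0.15 in R116 and from 0.02 to -0.13 in R125.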
